A study of Homo sapiens with 14 samples.

Results

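Cytosine-to-uracil (C-to-U) mismatches were examined in the Buffer-only control libraries of an in situ RNA editing experiment, 3 libraries made from 1 ng of total RNA and 3 made from 100 pg. These 6 of the 14 libraries of the series were taken by their titles, and the libraries of one input were not paired with those of the other, since the sources used here do not state whether libraries of the same number came from one RNA. All libraries came from HEK293T cells fixed with methanol, an immortalised line of human embryonic kidney origin that some labels write as HEK293XT, and in the Buffer-only wells neither the primary antibody nor the APOBEC1-nanobody enzyme was added before the overnight incubation. The other 8 libraries were RBFOX2 libraries, which received the antibody and the enzyme (3 per input), and Enzyme-only libraries, which received the enzyme and no antibody (1 per input). The replicates were wells of separate slides of 1 cell line, so that p-values measure the spread between these wells. Whether ribosomal RNA was removed before the low-input preparation is not stated.

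APOBEC1 is a cytidine deaminase that turns C into U in RNA and prefers an A or a U directly before the C, and reverse transcription reads the U as a T. A C-to-T mismatch in a read may come from a deaminated base, from a genomic variant, or from an error of copying, sequencing or alignment, and a list of sites does not tell these sources apart. Buffer-only libraries therefore hold the mismatches that are present without added enzyme, and the study used them to remove background clusters. Strand-specific preparation is not stated for the low-input kit, so that a C-to-U site opposite to a gene and a G-to-A mismatch in the transcript of that gene cannot be told apart.

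A site is a genomic position at which the SAILOR caller listed C-to-U mismatches in a library, its coverage is the number of reads over it, and its edit fraction is the percent of these reads that carry the mismatch. Of the positions listed in all 6 libraries, 6 of the 10 with the highest mean coverage are shown first, to display where the repeated background mismatches lie (hg38, 5′ to 3′ on the strand of the site, the listed C in capitals).
MT-RNR2, opposite strand, chrM:2139-2159: aaattttttaCtctctctaca
MT-CO1, opposite strand, chrM:7201-7221: aacgtcggggCattccggata
MT-CYB, gene strand, chrM:15249-15269: actcagtagaCagtcccaccc
MT-ND5, gene strand, chrM:12690-12710: caaatatctaCtcatcttcct
TRMT112, opposite strand, chr11:64317268-64317288: tcggccgcctCcaggaacgcc
RPS23, gene strand, chr5:82277841-82277861: aatttttaggCaagtgtcgtg

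The remaining 4 of these 10 positions had a run of 6 U (T in the genome) directly before the C, and they are shown with the run visible in lower case.
C1QBP, opposite strand, chr17:5432892-5432912: ggtattttttCccccatgata
ENSG00000230021, gene strand, chr1:630906-630926: cgccttttttCccggcggcgg
DTWD2, gene strand, chr5:118974310-118974330: gttcttttttCctcccctgtt
PTMA, opposite strand, chr2:231713038-231713058: gttcttttttCctcccctgtt

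The windows of DTWD2 and PTMA were identical, and that of ENSG00000230021 was identical to a mitochondrial window with another listed site, so that the place of their reads is uncertain. Among the positions after a run, those with the next highest coverage are shown with the run and the C in capitals. This set was chosen after the values had been seen.
No gene, chrM:5736-5756: cgccTTTTTTCccggcggcgg
DNAJC8, opposite strand, chr1:28208393-28208413: ttgTTTTTTTCgctctttcac
SOX4, opposite strand, chr6:21598483-21598503: tcTTTTTTTTCccccaaacat
CBX1, opposite strand, chr17:48076989-48077009: tttgTTTTTTCcccatagtgc
RALY, gene strand, chr20:34103503-34103523: tagTTTTTTTCttctttttct

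The 6 libraries listed 125800 sites at 118957 positions. The 1 ng libraries held 20330, 22543 and 22349 sites, against 21140, 20788 and 18650 in the 100 pg libraries. The numbers of the inputs overlapped, with means of 21741 ± 1226 at 1 ng and 20193 ± 1348 at 100 pg (SD, n = 3 each; exact two-sided permutation test, p = 0.3). The reads with the mismatch added up to 48909, 53985 and 55012 at 1 ng and to 62197, 57889 and 51526 at 100 pg, which also overlapped (exact permutation p = 0.3). With 3 libraries against 3 this test cannot give a p below 0.1, the value it takes whenever the libraries of the inputs do not overlap. The total read number of each library is not given in the files used here, so that the depth was judged from the coverage of the sites alone.

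The depth behind the sites differed between the inputs although their median coverage was 19 reads in all 6 libraries. Sites covered by 5 to 9 reads made up 27.3%, 27.1% and 26.8% at 1 ng, against 21.3%, 22.0% and 21.7% at 100 pg. Sites covered by 10 to 19 reads took 23.7%, 23.9% and 24.2% at 1 ng and 28.97%, 28.6% and 29.8% at 100 pg. The lowest coverage class was thus larger in every 1 ng library, and the next class was smaller in every one of them. Mean coverage was 38.3, 38.1 and 39.3 reads at 1 ng and 48.2, 42.0 and 43.3 reads at 100 pg, without overlap (exact permutation p = 0.1). No site had a coverage under 5 reads.

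**Figure D1:**
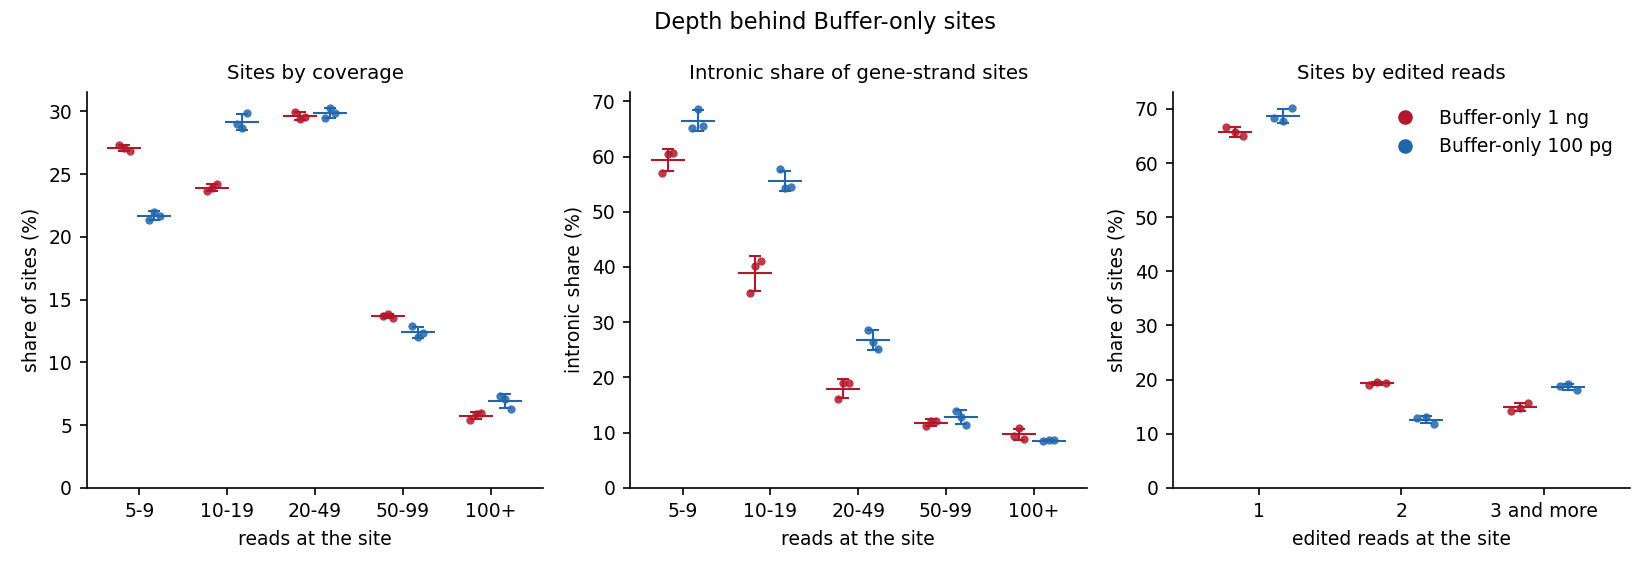
Share of sites by coverage (left, %), intronic share of gene-strand sites by coverage (centre, %) and share of sites by the number of edited reads (right, %), with 1 point per library, 1 ng in red and 100 pg in blue, and bars for the mean and SD of 3 libraries. Sites with 2 edited reads lie between 19.04% and 19.5% at 1 ng and between 11.8% and 13.1% at 100 pg.

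The number of edited reads per site was distributed differently as well. Sites with exactly 2 edited reads made up 19.04%, 19.5% and 19.3% at 1 ng and 12.9%, 13.1% and 11.8% at 100 pg. Sites with 1 edited read (66.7%, 65.7% and 65.0% at 1 ng; 68.3%, 67.8% and 70.2% at 100 pg) and sites with 3 or more (14.2%, 14.7% and 15.8% at 1 ng; 18.8%, 19.2% and 18.0% at 100 pg) were both less frequent in all 1 ng libraries. A site carried a mean of 2.41, 2.39 and 2.46 edited reads at 1 ng and 2.94, 2.78 and 2.76 at 100 pg. Molecular identifiers are not stated, and copies of 1 molecule cannot be told apart from separate molecules in these counts. The median edit fraction overlapped, at 6.67%, 6.67% and 7.14% at 1 ng against 7.14% in each 100 pg library (exact permutation p = 0.4). At 100 reads or more it was 1.70%, 1.72% and 1.73% at 1 ng and 2.02%, 2.05% and 2.15% at 100 pg. No site of that depth was listed with a single edited read in any library. Sites had to pass a score limit of the caller to be listed, and how far this limit shaped the values at that depth was not tested.

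Sites were then set against genes. A site that fell in an annotated gene lay on the strand of that gene in 57.1%, 57.3% and 57.4% of cases at 1 ng and in 54.9%, 54.3% and 55.1% at 100 pg (means of 57.3 ± 0.189% at 1 ng and 54.8 ± 0.425% at 100 pg, SD, n = 3 each; exact permutation p = 0.1). Without the sites that had genes on both strands, the means were 50.9% at 1 ng and 48.5% at 100 pg. Background mismatches were thus close to evenly split between the strands, with a slightly larger gene-strand share in every 1 ng library. The share of sites outside any gene was 4.71%, 5.04% and 4.81% at 1 ng, below the 5.60%, 5.52% and 5.42% at 100 pg. On the gene strand lay 11057, 12274 and 12220 sites at 1 ng and 10949, 10667 and 9728 sites at 100 pg.

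The 1 ng libraries carried more of their sites in mature transcript regions and fewer in introns. On the gene strand, 29.7%, 29.05% and 28.7% of the sites lay in 3′UTRs at 1 ng, against 23.4%, 24.6% and 24.2% at 100 pg (means of 29.1 ± 0.482% at 1 ng and 24.1 ± 0.624% at 100 pg, SD, n = 3 each; exact permutation p = 0.1). Introns took 30.1%, 32.9% and 33.2% at 1 ng and 40.3%, 39.5% and 39.1% at 100 pg. Coding sequence took 26.3%, 24.8% and 24.6% at 1 ng and 23.3%, 23.1% and 23.9% at 100 pg. The libraries of the inputs did not overlap for 4 of the 5 regions on the gene strand, noncoding exons being the exception, and the lowest exact permutation p adjusted over the 5 regions by Benjamini-Hochberg was 0.125.

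Sites opposite to genes gave the same order of the inputs in introns. Opposite introns took 26.8%, 30.5% and 31.3% at 1 ng and 38.9%, 37.5% and 36.9% at 100 pg, and opposite 3′UTRs took 26.2%, 25.7% and 24.95% at 1 ng and 21.2%, 22.3% and 21.9% at 100 pg. Again 4 of the 5 regions did not overlap (lowest adjusted exact permutation p = 0.125), and here 5′UTRs were the exception.

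**Figure D2:**
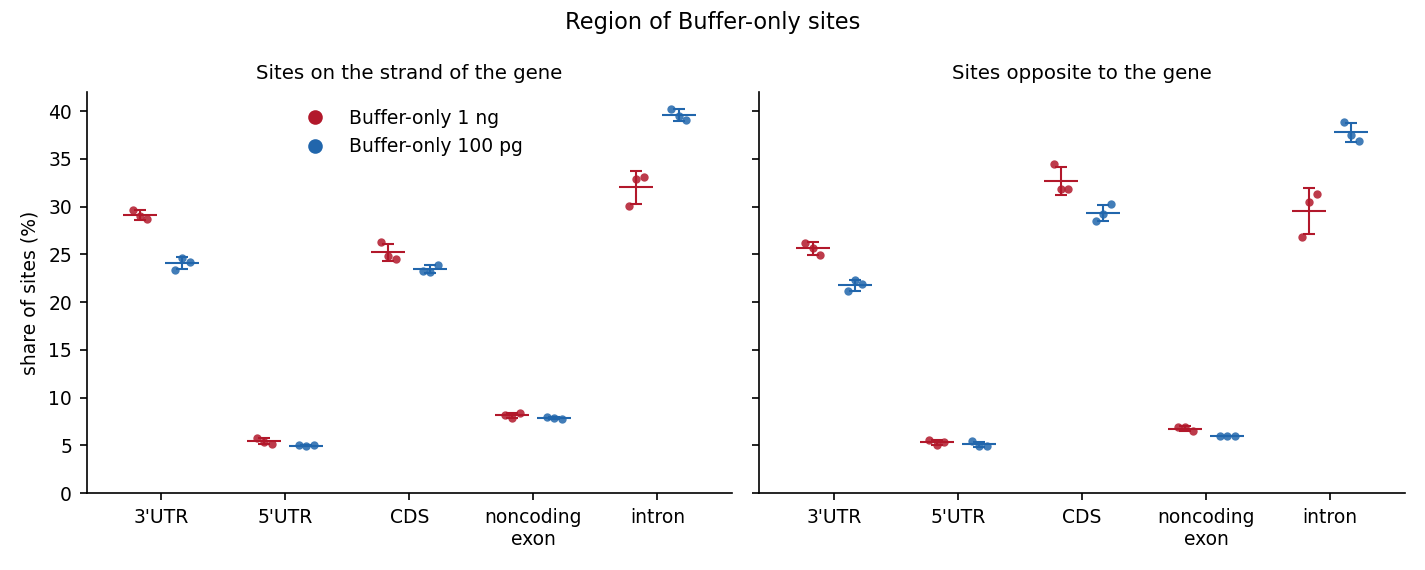
Share of sites in each region (%) on the strand of the gene (left) and opposite to it (right), with 1 point per library, 1 ng in red left of 100 pg in blue, and bars for the mean and SD of 3 libraries. Intronic shares on the gene strand lie between 30.1% and 33.2% at 1 ng and between 39.1% and 40.3% at 100 pg.

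The intronic share was lower at higher coverage in both inputs, and the coverage classes were compared one by one. Among gene-strand sites with 5 to 9 reads, introns held 57.0%, 60.4% and 60.7% at 1 ng and 65.1%, 68.7% and 65.6% at 100 pg. At 10 to 19 reads they held 35.2%, 40.2% and 41.1% at 1 ng and 57.7%, 54.4% and 54.5% at 100 pg, the widest gap of the 5 classes. At 20 to 49 reads the means were 18.0% at 1 ng and 26.7% at 100 pg, again without overlap. At 50 to 99 reads the libraries overlapped, with means of 11.8% at 1 ng and 12.8% at 100 pg, and at 100 reads or more the order was turned, with 9.41%, 10.7% and 8.83% at 1 ng and 8.40%, 8.58% and 8.63% at 100 pg. Each of the separated classes reached the exact permutation p of 0.1. The excess of intronic sites at 100 pg was therefore seen in sites covered by fewer than 50 reads. The 3′UTR share, in contrast, was higher in all 1 ng libraries in 4 of the 5 coverage classes, including 41.05%, 40.5% and 40.1% at 1 ng and 35.99%, 36.5% and 37.2% at 100 pg at 100 reads or more.

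In numbers of sites, gene-strand introns held 3324, 4035 and 4051 sites at 1 ng and 4407, 4215 and 3799 at 100 pg, which overlapped, whereas gene-strand 3′UTRs held 3280, 3565 and 3509 sites at 1 ng and 2561, 2626 and 2354 at 100 pg. Of 5 equal parts of the canonical transcript, the last held 23.6%, 24.8% and 24.2% of the exonic sites at 1 ng and 21.9%, 23.1% and 22.1% at 100 pg, the only part without overlap (adjusted exact permutation p = 0.5). By gene type, lncRNA genes held 10.2%, 10.3% and 10.2% of the gene-strand sites at 1 ng and 11.2%, 11.1% and 10.4% at 100 pg, and pseudogenes held 2.37%, 2.43% and 2.45% at 1 ng and 2.16%, 2.21% and 2.07% at 100 pg (adjusted exact permutation p = 0.2 for both, over 4 gene types). Of the 23 chromosomes compared, 4 did not overlap between the inputs (lowest adjusted p = 0.575). The mitochondrial genome held 21, 16 and 20 sites at 1 ng and 22, 14 and 14 at 100 pg.

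The bases around the C were compared next. An A or a U came directly before the C at 51.2%, 51.6% and 51.7% of the sites at 1 ng and at 50.4%, 50.7% and 50.6% at 100 pg, a difference of 0.94 percentage points that did not overlap (exact permutation p = 0.1). On the gene strand alone the inputs overlapped (means of 47.9% at 1 ng and 47.5% at 100 pg), and opposite to genes they did not (56.0% at 1 ng and 53.9% at 100 pg). The base after the C differed more. It was a U at 31.5%, 31.2% and 31.0% of the sites at 1 ng and at 26.2%, 27.1% and 26.8% at 100 pg, and an A at 29.6%, 29.9% and 30.3% at 1 ng and at 33.1%, 33.3% and 32.7% at 100 pg (adjusted exact permutation p = 0.133 over the 4 bases).

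Counting the sites of every context of 5 bases, with the C in the centre, gave a test that is not bound to the limit of single values. By edgeR's quasi-likelihood test, 27 contexts (10.5%) passed a Benjamini-Hochberg adjusted p of 0.05. Of all contexts, 21 rose at 1 ng (8.2%) and 6 fell (2.34%). In all 27, the libraries of the inputs did not overlap in their shares, as in 73 of all contexts (28.5%). Without scaling beyond the total of sites the split was 20 that rose and 14 that fell, with a median log2 fold change over all contexts of −0.05 in place of 0.01. DESeq2 called 18 that rose and 3 that fell. Gene-strand sites alone gave 14 that rose and 4 that fell, and opposite-strand sites alone gave 10 that rose and 2 that fell.

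Contexts with UU after the C made up 14 of the 21 contexts that rose, of 16 such contexts in all, and their median log2 fold change was 0.56, beside 0.01 over all contexts. GGCUU was listed at 262, 255 and 290 sites at 1 ng and at 147, 158 and 138 at 100 pg (log2 fold change 0.83, SE 0.07, edgeR adjusted p = 5.37e-21). CUCUU had 283, 327 and 320 sites at 1 ng and 201, 189 and 170 at 100 pg (0.69, SE 0.06). AACUU had 114, 125 and 135 sites at 1 ng and 81, 80 and 63 at 100 pg (0.70, SE 0.12), and AGCUU had 143, 161 and 146 at 1 ng and 95, 85 and 94 at 100 pg (0.68, SE 0.11). Every 1 ng library thus lay above every 100 pg library in these contexts. Of the 16, CGCUU (0.56, edgeR adjusted p = 0.0564) and UACUU (0.05, edgeR adjusted p = 0.908) did not pass. The base before the C in UACUU, an A, did not set it apart. The same base precedes the C in AACUU (log2 fold change 0.70), in CACUU (0.48) and in GACUU (0.41), which all passed.

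Among the other contexts, UUCCC had 352, 410 and 401 sites at 1 ng and 241, 252 and 199 at 100 pg (log2 fold change 0.71, SE 0.05, edgeR adjusted p = 5.1e-23), and 3 of the 4 contexts with UU before and C after the C rose. ACCGA rose on low numbers, with 28, 35 and 28 sites at 1 ng and 20, 17 and 14 at 100 pg (0.79, SE 0.24, edgeR adjusted p = 0.0142). The 6 that fell were GUCCG (−0.84, SE 0.28), CCCAG (−0.49, SE 0.09), CCCCA (−0.48, SE 0.11), UGCCC (−0.40, SE 0.09), AUCCC (−0.40, SE 0.14) and UCCCA (−0.29, SE 0.09). CCCAG, the best supported of them, had 143, 136 and 145 sites at 1 ng and 199, 191 and 189 at 100 pg. All 6 had a C directly before or after the listed C, as did 9 of the 21 contexts that rose and 112 of all contexts (43.8%), a trait that was noticed after the calls had been seen.

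**Figure D3:**
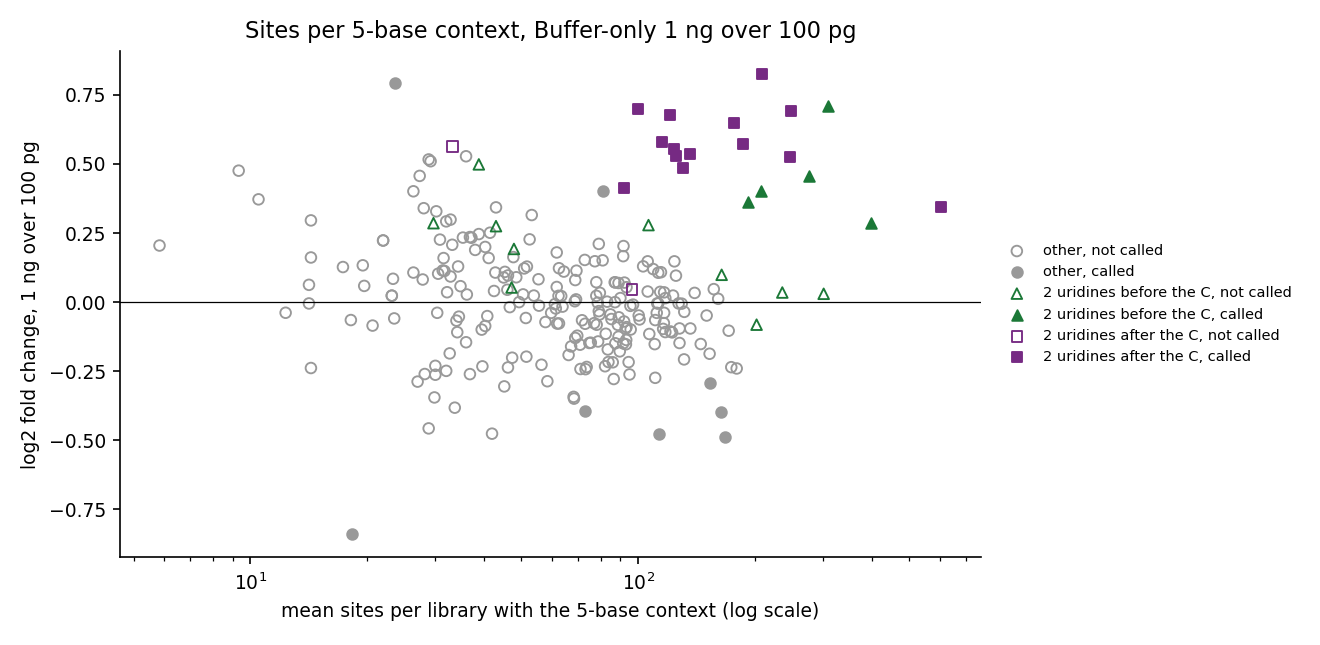
Log2 fold change of the number of sites (1 ng over 100 pg) against the mean number of sites per library (log scale) for all contexts of 5 bases, 1 point each. Squares are contexts with 2 uridines after the C and triangles other contexts with 2 uridines before it, filled where edgeR's adjusted p was under 0.05. Of the 16 squares 14 are filled and all of these lie above 0.

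The share of sites with UU after the C was 15.1%, 15.1% and 15.01% at 1 ng and 10.8%, 10.9% and 11.1% at 100 pg (exact permutation p = 0.1). It was 17.8%, 17.7% and 17.9% at 1 ng and 11.4%, 11.5% and 11.7% at 100 pg on the gene strand, and 11.8%, 11.8% and 11.5% at 1 ng and 10.3%, 10.4% and 10.8% at 100 pg opposite to genes. The difference was therefore wider on the gene strand, 6.27 percentage points there and 1.19 opposite to genes, and this contrast was not tested. It was present in each class of coverage up to 99 reads, and at 100 reads or more the inputs overlapped with means of 21.3% at 1 ng and 21.1% at 100 pg. In the spliced annotated transcripts, 7.57% of all C and 8.83% of the C of the opposite strand have UU after them. The shares of both inputs on the same strand were above these values, but they include intronic sites, which spliced transcripts leave out.

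Runs of U before the C, as in the sequences shown above, separated the inputs on the other side of the C. A run of 6 or more U stood directly before 4.40%, 4.68% and 4.68% of the sites at 1 ng (895, 1055 and 1045 sites) and before 2.66%, 2.76% and 2.54% at 100 pg (563, 574 and 473 sites). This length was chosen after the values had been seen, and the shares do not overlap (exact permutation p = 0.1). In the spliced transcripts such a run precedes 0.0852% of all C, and 0.102% of the C of the opposite strand. The shares over all sites were far above these values, but they include introns and positions outside genes, which spliced transcripts leave out. The value of 0.0852% covers whole transcripts and was not computed by region, so that single regions cannot be judged against it. In gene-strand coding sequence the means were 0.0221% at 1 ng and 0.0422% at 100 pg, with 0% in 1 library of each input. In gene-strand 5′UTRs the shares were 0.156%, 0.152% and 0.159% of 643, 658 and 629 sites at 1 ng. At 100 pg they were 0.362%, 0.190% and 0% of 552, 525 and 487 sites. The values of both regions rest on very few sites. In gene-strand noncoding exons the means were 2.11% at 1 ng and 0.999% at 100 pg.

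The share of sites did not decline steadily with the length of the run. A run of exactly 5 U preceded 1.19%, 1.27% and 1.28% of the sites at 1 ng and 1.15%, 1.11% and 0.987% at 100 pg, whereas a run of exactly 6 preceded 2.06%, 2.15% and 2.13% at 1 ng and 1.14%, 1.25% and 1.04% at 100 pg. The step from 5 to 6 was thus an increase in all 1 ng libraries, while at 100 pg the shares of the 2 lengths lay close together. The base after the C changed at the same length. It was another C in 24.1%, 21.3% and 24.7% of the sites after exactly 5 U at 1 ng, and in 20.6%, 18.6% and 16.8% at 100 pg. After 6 or more U it was a C in 54.6%, 54.9% and 51.0% of the sites at 1 ng and in 41.4%, 42.3% and 44.4% at 100 pg.

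**Figure D4:**
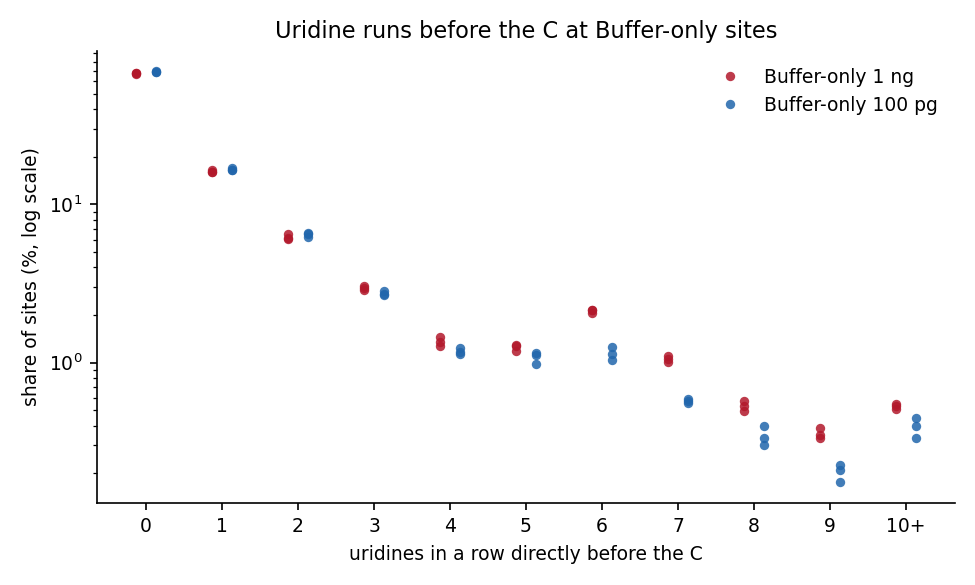
Share of sites (%, log scale) by the number of uridines in a row directly before the C, with 1 point per library, 1 ng in red left of 100 pg in blue. At 6 uridines the 1 ng libraries lie between 2.06% and 2.15% and the 100 pg libraries between 1.04% and 1.25%.

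Sites after a run of 6 or more U lay mostly opposite to genes. They were 8.33%, 9.09% and 9.27% of the opposite-strand sites at 1 ng and 4.74%, 4.86% and 4.56% at 100 pg, but 1.41%, 1.46% and 1.33% of the gene-strand sites at 1 ng and 0.977%, 1.05% and 0.956% at 100 pg. In the transcript a run of U opposite to the gene reads as a run of A, with the mismatch at the G before it. Within gene-strand introns the share was 3.28%, 3.07% and 2.84% at 1 ng and 1.61%, 1.78% and 1.71% at 100 pg, whereas in gene-strand 3′UTRs the inputs overlapped with means of 0.799% at 1 ng and 0.927% at 100 pg. The higher share at 1 ng held in each of the 5 coverage classes, and at 100 reads or more it was 7.91%, 8.28% and 8.90% at 1 ng against 5.99%, 5.99% and 6.91% at 100 pg.

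Such sites were also listed again more often than others. Of the sites after 6 or more U, 48.6%, 43.5% and 44.3% at 1 ng and 54.5%, 52.6% and 57.9% at 100 pg were listed in at least 1 other Buffer-only library, against 7.83%, 7.73% and 7.52% of the other sites at 1 ng and 5.61%, 5.74% and 5.97% at 100 pg. At the DNAJC8 position shown above (DNAJC8 is a J-domain protein of the spliceosome) the edit fraction was 2.47%, 2.92% and 2.65% at 1 ng and 2.73%, 3.69% and 2.62% at 100 pg. At the SOX4 position (SOX4 is a developmental transcription factor) it was 7.65%, 7.39% and 6.62% at 1 ng and 7.16%, 11.9% and 4.92% at 100 pg. At the CBX1 position (CBX1 encodes the heterochromatin protein HP1 beta) it was 4.89%, 9.82% and 7.35% at 1 ng and 1.72%, 2.01% and 4.97% at 100 pg. The libraries overlapped at all 3 of these positions, and the CBX1 difference did not pass the test across repeated positions (log2 change of the odds 1.43, SE 0.55, edgeR adjusted p = 0.856).

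Most background sites were seen once, and the 1 ng libraries shared more of them. Of 62414 positions listed at 1 ng, 755 (1.21%) were listed in all 3 libraries, against 387 of 59024 (0.656%) at 100 pg. Pairs of libraries shared between 1139 and 1235 positions within 1 ng and between 626 and 670 within 100 pg, while a 1 ng and a 100 pg library shared between 748 and 867. No test was made, since the pairs share libraries. A position that is not listed need not be free of edited reads, because the score limit of the caller applies to each library. Of the repeated positions, 95.4% of the 755 and 96.9% of the 387 were also listed in an RBFOX2 library of 1 ng, against 3.79% of the positions listed in 1 library of 1 ng and 3.01% of those listed in 1 library of 100 pg.

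All 6 libraries listed 281 positions, 95 on the gene strand, 142 opposite to a gene and 44 outside genes. On the gene strand lay 40.1% of those in genes, against 57.4% for positions listed in 1 library, and 19.6% followed 6 or more U, against 2.05%. At 24 of the 281 the mean edit fraction was at least 50% and at 80 it was under 10%. A window of 21 bases around the position was shared with another of the 281 at 28 positions, where reads may be split between copies.

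The edit fraction at the 281 positions was tested in edgeR on edited and unedited reads. None passed the adjusted p of 0.05 (0%; lowest adjusted p 0.465), and 5 were higher and 9 lower at 1 ng by an unadjusted p under 0.05, and no other tool was run on these counts. The median of the mean fractions was 17.4% at 1 ng and 19.3% at 100 pg, with 117 positions higher and 164 lower at 1 ng. The libraries did not overlap at 28 positions (9.96%).

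**Figure D5:**
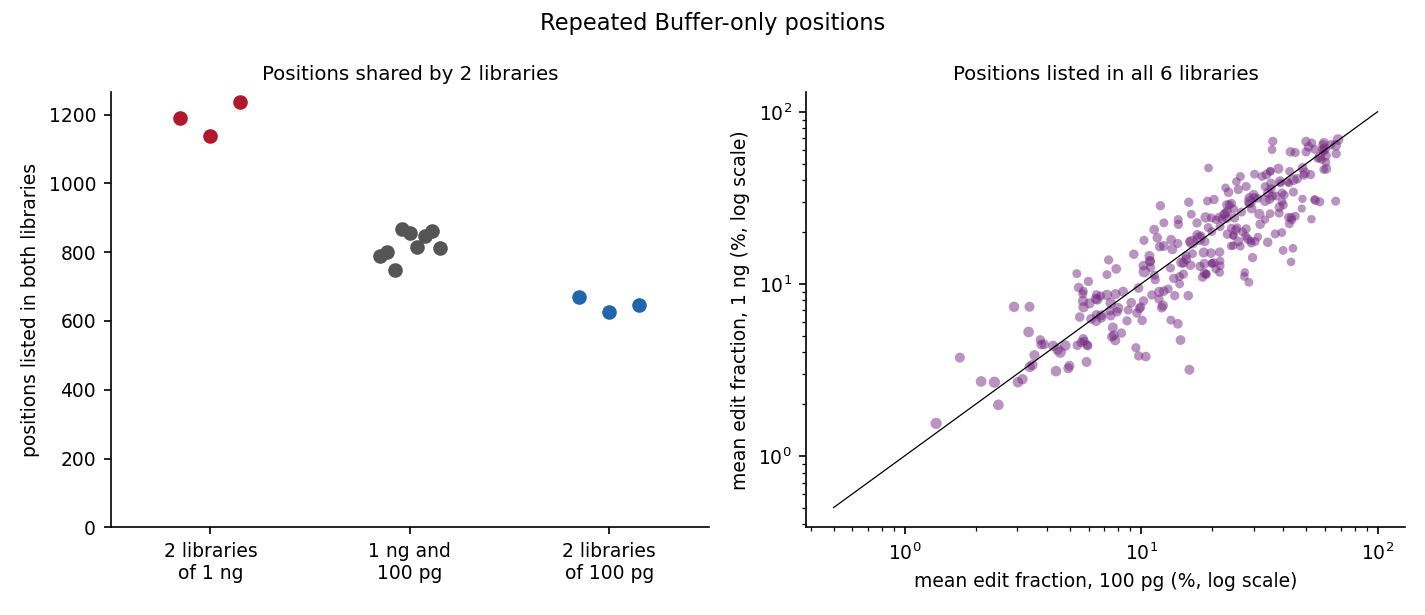
Left, the number of positions listed in both libraries of a pair, 1 point per pair, within 1 ng (red), between the inputs (grey) and within 100 pg (blue). Right, the mean edit fraction at 1 ng against that at 100 pg (%, log scales) for the 281 positions listed in all 6 libraries, with larger points at higher coverage and a line of equal values. Pairs within 1 ng lie at 1139 or above and pairs within 100 pg at 670 or below.

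The repeated positions with the highest coverage lay on the mitochondrial genome, in or opposite to its genes. Opposite to MT-RNR2, the large mitochondrial ribosomal RNA, the fraction was 17.6%, 17.7% and 17.1% at 1 ng and 16.6%, 16.2% and 16.4% at 100 pg, on 28934 to 39357 reads. In MT-CYB, which encodes cytochrome b, it was 30.6%, 29.3% and 29.7% at 1 ng and 28.8%, 28.8% and 28.96% at 100 pg. Both were higher in every 1 ng library by about 1 percentage point, and neither passed the edgeR test (adjusted p = 0.986 for each). The log2 change of the odds was 0.11 (SE 0.34) for MT-RNR2 and 0.07 (SE 0.34) for MT-CYB. With these standard errors the test could not resolve differences of this size. Opposite to MT-CO1, a catalytic subunit of cytochrome c oxidase, the fraction was 18.4%, 18.2% and 18.2% at 1 ng and 18.8%, 17.7% and 16.3% at 100 pg, with overlap. In MT-ND5, a subunit of the respiratory NADH dehydrogenase, it was 10.9%, 12.1% and 12.3% at 1 ng and 9.59%, 12.3% and 9.04% at 100 pg, again with overlap.

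Among the 6 nuclear positions of these 10, the fraction was highest opposite to TRMT112, a partner of several methyltransferases, with 66.3%, 72.5% and 68.2% at 1 ng and 73.3%, 65.1% and 65.8% at 100 pg on 562 to 690 reads. In the coding sequence of RPS23, a protein of the small ribosomal subunit, it was 31.7%, 30.1% and 29.5% at 1 ng and 38.8%, 35.5% and 26.2% at 100 pg. Opposite to C1QBP, a mitochondrial matrix protein, it was 2.82%, 2.86% and 2.35% at 1 ng and 1.92%, 2.68% and 2.59% at 100 pg. The inputs overlapped at all 3 positions.

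Positions confined to the lists of one input were counted next. All 3 libraries of 1 ng and none of 100 pg listed 125 positions, with a median coverage of 14.7 reads. The reverse held for 13 positions, with a median coverage of 143 reads. This 143 is the value of a position opposite to DENR, 1 of 5 neighbours there that share their reads. Others of the 13 had far lower coverage, such as 11 reads opposite to PKM and 8.67 opposite to PATJ. The 1 ng position of highest coverage lay opposite to SMARCC1, a subunit of a chromatin remodelling complex, with 2, 2 and 3 edited of 130, 145 and 198 reads. Of the 13 at 100 pg, the deepest lay opposite to the 3′UTR of HSPA5, the chaperone of the endoplasmic reticulum, with 14, 18 and 9 edited of 517, 498 and 333 reads. In the 3′UTR of SDHC, a subunit of succinate dehydrogenase, 15, 15 and 3 of 230, 257 and 150 reads were edited. The 5 neighbours among the 13 lay opposite to the coding sequence of DENR, a factor of translation reinitiation. The 7 listed positions of this stretch are shown in capitals, since they make up nearly all DENR sites.
DENR, opposite strand, chr12:122765355-122765373: ttCttCtCCtCttCttCcc

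The stretch carried 19 sites at the 7 positions in the 100 pg libraries, against 1 site in the 1 ng libraries, with 2 to 6 edited of 107 to 185 reads at each site (1.34% to 4.13%). The positions span 15 bases and share their reads, so that they are not separate observations. In total DENR had 0, 0 and 1 opposite-strand sites at 1 ng and 7, 6 and 7 at 100 pg (log2 fold change −3.97, SE 0.83, edgeR adjusted p = 0.0713), the lowest adjusted p of all opposite-strand genes. DENR met the count filter through its 100 pg libraries alone, so that its fold change and p-values are no separate support for a difference. It passed in 2 of the 13 alternative fits that tested it, those without sites in overlapping genes (adjusted p = 0.0476) and with a replicate block (0.0281), and its highest adjusted p among them was 0.997.

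Sites per gene were tested on each strand. Gene-strand sites lay in 13380 genes, of which 24.9% had a single site over all 6 libraries, and 476 genes had enough sites for the test. By edgeR none of them passed the adjusted p of 0.05 (0%; lowest adjusted p 0.183), unadjusted p-values under 0.05 were reached by 11 genes higher and 12 genes lower at 1 ng, and DESeq2 called 0 as well. The libraries did not overlap in 55 of the 476 genes (11.6%). Opposite-strand sites lay in 10530 genes, and of the 442 tested none passed (0%), with unadjusted p-values under 0.05 for 17 genes higher and 17 genes lower at 1 ng, and 0 calls by DESeq2. Here 63 genes did not overlap (14.3%). The median log2 fold change was 0.07 on both strands, and the median standard error of a log2 fold change was 0.69 on the gene strand and 0.65 on the opposite strand.

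The 10 genes with most gene-strand sites spanned 45.03 to 593.4 kb, with a median of 297.4 kb, against a median of 98.6 kb over the 476 genes tested. SLIT2, a secreted guidance ligand of Robo receptors (chr4:20251905-20620561), had 29, 32 and 25 sites at 1 ng and 21, 20 and 19 at 100 pg (log2 fold change 0.27, SE 0.19, edgeR adjusted p = 0.958). Of its 146 sites 130 were intronic, at 144 positions in all. The pseudogenes DUXAP9, DUXAP10 and DUXAP8, copies derived from a double homeobox gene, came next, and reads could be split among them. DUXAP10 had 23, 21 and 24 sites at 1 ng and 12, 13 and 13 at 100 pg (0.58, SE 0.25, edgeR adjusted p = 0.90). DUXAP9 had 21, 24 and 22 at 1 ng and 21, 9 and 17 at 100 pg, and DUXAP8 had 18, 19 and 21 at 1 ng and 13, 18 and 12 at 100 pg. Summed over the family, 62, 64 and 67 gene-strand sites at 1 ng stood against 46, 40 and 42 at 100 pg, and 43, 50 and 57 opposite-strand sites stood against 34, 37 and 40. The sums did not overlap on either strand, and none of the 3 genes passed on either strand.

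The DUXAP genes differed from SLIT2 in how often their positions came back. At least 2 libraries listed 17 of the 55 gene-strand positions of DUXAP9, 17 of 47 in DUXAP10 and 18 of 42 in DUXAP8, against 2 of 144 in SLIT2. Of the other leading genes, the long noncoding RNA ENSG00000274333 had 15, 15 and 18 sites at 1 ng and 6, 13 and 10 at 100 pg. FTX, a noncoding RNA of the X inactivation centre, had 17, 11 and 16 at 1 ng and 12, 11 and 7 at 100 pg. MIR924HG had 10, 10 and 15 at 1 ng and 11, 20 and 5 at 100 pg. EIF4G3, a scaffold of translation initiation, ENSG00000230021 and MID1, a microtubule-bound ubiquitin ligase, had between 4 and 13 sites in each library. None of these 6 passed (edgeR adjusted p = 0.958 for each).

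In the 13 gene lists examined, 192 members had a gene-strand site and 169 an opposite-strand site, and 17 and 15 entries could be tested. None passed on either strand. NEAT1, the noncoding RNA of paraspeckles, had 6, 7 and 9 gene-strand sites at 1 ng and 0, 4 and 3 at 100 pg (log2 fold change 1.36, SE 0.60, edgeR adjusted p = 0.723). MALAT1, another nuclear noncoding RNA, had 6, 1 and 2 at 1 ng and 4, 2 and 3 at 100 pg. Opposite to EIF5B, an initiation factor that joins the ribosomal subunits, there were 7, 9 and 4 sites at 1 ng and 1, 2 and 2 at 100 pg (1.83, SE 0.60, edgeR adjusted p = 0.506). Opposite to PKM, a glycolytic kinase, there were 3, 2 and 2 at 1 ng and 8, 6 and 5 at 100 pg (−1.49, SE 0.54, edgeR adjusted p = 0.506). The inputs did not overlap for these entries of NEAT1, EIF5B and PKM, and they overlapped for MALAT1. Of all tested genes, 11.6% on the gene strand and 14.3% on the opposite strand did not overlap. Opposite to NEAT1 the inputs overlapped, with 6, 6 and 6 sites at 1 ng and 2, 7 and 1 at 100 pg.

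By summed gene-strand sites, the 84 cytoplasmic ribosomal protein genes had 34, 35 and 51 at 1 ng and 43, 35 and 53 at 100 pg. The 22 genes of hnRNP and splicing factors had 53, 44 and 57 at 1 ng and 45, 50 and 44 at 100 pg, and the 17 translation factors had 28, 27 and 27 at 1 ng and 25, 22 and 22 at 100 pg. The 15 cytoskeleton genes had 12, 22 and 10 at 1 ng and 26, 21 and 20 at 100 pg. As a share of the gene-strand sites the cytoskeleton list was lower in every 1 ng library, and its tested members MYH10 (−0.77) and TUBA1C (−1.31) had adjusted p-values of 0.958 by edgeR. Opposite to the cytoskeleton genes the inputs overlapped, with 8, 12 and 12 sites at 1 ng and 7, 11 and 14 at 100 pg. The DUXAP list was the only other list of the 13 without overlap on the gene strand, where 11.6% of all tested genes did not overlap either. Of the transcripts known for C-to-U editing in tissues, APOB, the classical target of APOBEC1, had no site. NF1 had 16 gene-strand sites over the 6 libraries, SDHB had 5 and GLRA2 had 2. Opposite to them lay 13 sites in NF1, 6 in SDHB and 5 in GLRA2. These counts cover the whole gene and not the known edited base. Of the 8 markers of the line, 6 had gene-strand sites, among them NEFL with 8 and VIM with 7. PAX2 and LHX1 had none on either strand. None of the 9 markers of other cells had a gene-strand site, with a single opposite-strand site in COL1A1. A gene without sites is not shown to be unexpressed.

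FLARE called 9982, 11004 and 11028 clusters in the 1 ng libraries, against 9912, 9629 and 8864 in the 100 pg libraries (exact permutation p = 0.1). They held 93.3%, 92.6% and 93.2% of the gene-strand sites at 1 ng and 92.9%, 92.9% and 93.6% at 100 pg, but only 4, 2 and 2 opposite-strand sites at 1 ng and 3, 6 and 4 at 100 pg. Opposite-strand sites were thus nearly absent from the clusters of both inputs. Whether the caller looks for clusters on that strand is not stated, so that this split need not be a trait of the background. There were 320, 343 and 345 clusters with 2 or more listed sites in the 1 ng libraries, against 253, 262 and 226 in the 100 pg libraries, or 3.21%, 3.12% and 3.13% of clusters at 1 ng and 2.55%, 2.72% and 2.55% at 100 pg. The mean number of edited bases in a cluster was 2.06, 2.09 and 2.15 at 1 ng and 2.70, 2.67 and 2.66 at 100 pg. The lists that combine the replicates held 250 clusters at 1 ng and 102 at 100 pg, and 74 overlapped, which is 29.6% of the 1 ng list and 72.5% of the 100 pg list.

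Neighbouring sites were counted over all sites. Another site lay within 10 bases on the same strand for 4.45%, 4.36% and 4.16% of the sites at 1 ng and for 3.67%, 3.67% and 4.06% at 100 pg. Opposite to genes this share was 7.79%, 7.60% and 7.29% at 1 ng and 6.30%, 5.87% and 6.84% at 100 pg, and on the gene strand it stayed under 2% in every library. Counting neighbours as 1 site left 28 contexts past the threshold, among them all 27 named above.

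The effect of the input was compared with that in the RBFOX2 libraries, to see whether the contexts moved alike with and without the enzyme. The difference of the 2 input effects passed edgeR's adjusted p of 0.05 in 69 contexts (27% of all), 33 with a more positive and 36 with a more negative effect in Buffer-only libraries. Gene-strand sites alone gave 43 such contexts, 23 more positive and 20 more negative. Without scaling beyond the total of sites there were 64 more positive and 26 more negative, with a median difference over all contexts of 0.23 in place of 0.11 on the log2 scale. The 14 contexts with UU after the C that rose in Buffer-only libraries had positive log2 fold changes in RBFOX2 libraries, as did 116 of all contexts (45.3%). The input effects differed in 5 of these 14. AGCUU changed by 0.68 in Buffer-only and by 0.19 in RBFOX2 libraries (edgeR adjusted p of the difference 0.0135), UGCUU by 0.65 in Buffer-only and by 0.24 in RBFOX2 libraries (0.0125), and ACCUU by 0.58 in Buffer-only and by 0.18 in RBFOX2 libraries (0.0441). The effect was smaller in Buffer-only libraries for CACUU (0.48 in Buffer-only and 0.82 in RBFOX2 libraries, edgeR adjusted p = 0.0441) and GACUU (0.41 in Buffer-only and 0.91 in RBFOX2 libraries, edgeR adjusted p = 0.00642). GGCUU changed by 0.83 in Buffer-only and by 0.57 in RBFOX2 libraries (difference 0.26, SE 0.12, edgeR adjusted p = 0.0894). UACUU changed by 0.05 in Buffer-only and by 0.95 in RBFOX2 libraries (difference −0.90, SE 0.13, edgeR adjusted p = 2.43e-06), the smallest adjusted p of all contexts.

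Other values are given side by side with no test. UU followed the C at 16.3% ± 0.0780 of RBFOX2 sites at 1 ng and at 12.4% ± 0.113 at 100 pg (SD, n = 3 each), and a run of 6 or more U stood before 8.75% of opposite-strand RBFOX2 sites at 1 ng and 4.52% at 100 pg. In the single Enzyme-only libraries the share after such a run was 9.14% at 1 ng and 4.54% at 100 pg. These shares lay near those of the Buffer-only libraries, with means of 8.90% at 1 ng and 4.72% at 100 pg. In contrast, an A or a U stood before the C at 71.9% of RBFOX2 sites at 1 ng and 61.2% at 100 pg, and at 68.4% of Enzyme-only sites at 1 ng and 57.9% at 100 pg, beside the Buffer-only means of 51.5% at 1 ng and 50.6% at 100 pg. The gene-strand share was 77.9% at 1 ng and 65.9% at 100 pg in RBFOX2 libraries, beside 57.3% at 1 ng and 54.8% at 100 pg in Buffer-only libraries. RBFOX2 libraries listed a mean of 41659 sites at 1 ng and 27101 at 100 pg, so that Buffer-only site numbers, which overlapped between the inputs, stood closer to those of RBFOX2 at 100 pg than at 1 ng.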

How the data were processed

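Single-end reads of 6 Buffer-only libraries were analysed from the site and cluster files. The authors trimmed reads (cutadapt), removed those matching repeats, aligned the rest to hg38 (STAR 2.4.0) and called sites with SAILOR, which removed known variants. The deposited site files give counts of edited and of all reads, a SAILOR confidence score (over 0.5), and the edit fraction (under 0.8). The deposited FLARE cluster files (false discovery rate 0.1, merge distance 15 nt) give a score, counts of edited bases, a fraction and depth as a signal. The lists combining the replicates give mean coverage as a signal, per the authors.

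Members, gene lists and tests were chosen with earlier results of these data known. Each site was given 1 gene and region of a later Gencode release than the authors', 3′UTR before 5′UTR, CDS, noncoding exon and intron, with Python 3.11.15, numpy 2.4.6 and pandas 2.3.3. All listed positions carry a C in the reference. Values per library were compared with an exact two-sided permutation test (scipy 1.17.1). Sites per gene, sites per context and reads at shared positions were tested in edgeR 4.0.16 (R 4.3.3) by the quasi-likelihood test. Genes had to pass a count filter of about 3 sites in at least 3 libraries and 5 in total, which the libraries of 1 input alone can meet. TMM scaling was used for genes and contexts, and not for the reads at shared positions. The p-values were adjusted by Benjamini-Hochberg (limit 0.05). DESeq2 1.42.0 was an alternative. Scripts were tested on simulated data. Figures used matplotlib 3.10.9. Precision is limited by counting error at low site numbers, with 5 reads as the lowest coverage.

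Named were the 10 genes with most gene-strand sites, called genes, tested list members, the 6 contexts that rose and the 6 that fell most, and the 10 positions of highest coverage listed in all libraries. Positions of a single input, genes with the lowest p, the remaining contexts and long U runs were named after their values were seen. No library was left out.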

Additional observations from a re-analysis of the deposited data

Results flagged for a closer look

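The effect of the input on the base context differed between Buffer-only and RBFOX2 libraries in 69 of all contexts of 5 bases by edgeR's quasi-likelihood test of the difference itself. Among the named contexts, 3 were of this kind. ACCGA changed by 0.79 in Buffer-only and by −0.19 in RBFOX2 libraries on the log2 scale, a difference of 0.99 (SE 0.32, edgeR adjusted p = 0.0243). UUCCC changed by 0.71 in Buffer-only and by 0.42 in RBFOX2 libraries, a difference of 0.30 (SE 0.10, edgeR adjusted p = 0.0313). AGCUU changed by 0.68 in Buffer-only and by 0.19 in RBFOX2 libraries, a difference of 0.50 (SE 0.15, edgeR adjusted p = 0.0135).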

How the results depend on the processing

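Coverage minimums of 10 and 20 reads, a score of at least 0.9, leaving out repeated positions or the mitochondrial genome and leaving out each library kept the direction of the per-library differences, with 1 exception. At a score of at least 0.9 the median edit fraction turned to 14.3% at 1 ng and 13.03% at 100 pg, a difference of 1.26 percentage points; a stricter score keeps fewer sites, and the cause was not tested. The share of positions repeated in all 3 libraries moved to 1.33% at 1 ng and 0.866% at 100 pg with coverage of at least 20 reads. Without single libraries the differences (1 ng minus 100 pg) ranged from 776.7 to 2253 sites, −7408 to −2072 edited reads, 2.28 to 2.70 points of gene-strand share, 4.73 to 5.35 points of 3′UTR share, 0.82 to 1.09 points of A or U before the C, −0.48 to −0.24 points of median fraction and 900.8 to 1548 clusters. Called contexts ranged from 23 to 31, and called genes on both strands and called positions stayed at 0.

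Opposite-strand sites alone gave 12 contexts (10 rose, 2 fell) and gene-strand sites alone gave 43 differing from RBFOX2. Of the 12 named contexts, 37 of 168 results under 14 alternatives lost the call and none turned. Edited reads in place of sites called 1 gene-strand gene, CFL1 (0, 0 and 0 edited reads at 1 ng, 17, 32 and 20 at 100 pg). These reads lay at only 1, 2 and 1 sites in the 100 pg libraries, and CFL1 was not tested in the main fit. Sites in 1 gene on the strand called 1 opposite-strand gene, DENR.

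Whether same-numbered libraries of the inputs came from one RNA is not stated. Their deviations from the group means correlated by 0.03, 0.06 and 0.02 over genes and by −0.004, 0.13 and −0.03 over contexts, which was not enough to treat them as pairs. The replicate block called 0 gene-strand genes, 1 opposite-strand gene (DENR) and 26 contexts. Counting neighbouring sites once was an alternative chosen after seeing the data. Uncalled log2 fold changes that turned sign were SLIT2 (−0.049), DUXAP9 (−0.057), DUXAP8 (−0.14) and FTX (−0.016) under the default count filter, which left few genes, DUXAP9 (−0.026, range without single libraries −0.026 to 0.56) and MIR924HG (0.28, range −0.61 to 0.28) without 100 pg replicate 2, and TUBA1C (0.084) and KCNQ1OT1 (0.024) with edited reads. Repeat-masked shares were not run because the reference used here carries no masking.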
